A study of Mus musculus with 11 samples.

Results

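Class I antigen processing in mammary tumors was followed through 10 genes, taken by name from the deposited gene tables, which hold 26283 genes. They encode the 3 inducible catalytic subunits of the immunoproteasome (Psmb8, Psmb9 and Psmb10), both subunits of the PA28 proteasome activator (Psme1 and Psme2), the TAP peptide transporter (Tap1 and Tap2), the loading factor tapasin (Tapbp), the trimming peptidase Erap1 and the transactivator Nlrc5. Bulk poly(A) RNA was sequenced from 11 mammary tumors of C57BL/6 mice at 18 weeks of age, female because only females of this line develop them, and the question was what loss of the nucleic acid-binding protein PCBP1 does to tumor gene expression. The 6 PyMT Pcbp1-/- tumors carried MMTV-PyMT, MMTV-Cre and floxed Pcbp1 alleles (fl/fl), and the 5 PyMT Pcbp1+/+ tumors carried the same PyMT and Cre transgenes with wild-type alleles (wt/wt). PyMT is the polyomavirus middle T antigen, an oncogene that gives rise to mammary tumors. The MMTV promoter is used to direct Cre to mammary epithelial cells, and which cells of a tumor lost the gene was not measured here. Estimated counts per tumor summed to between 10543189 and 14092192, and expression is given as CPM, counts scaled by the total of that tumor. The labels do not say whether each tumor came from a separate animal, so p-values measure the spread between these tumors.

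Cells display fragments of their own proteins on class I molecules at the surface, where CD8 T cells inspect them. The proteasome cuts proteins into peptides, and interferons replace its constitutive catalytic subunits with those of the immunoproteasome, which favors peptides that fit class I grooves. TAP carries the peptides into the endoplasmic reticulum, where tapasin helps load them and ERAP1 trims them, and loss of this machinery is a well-known route by which tumors become less visible to T cells.

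Pcbp1 was examined first as a check of the labels. Its CPM in the 6 PyMT Pcbp1-/- tumors ran from 15.4 to 33.6 with a median of 20.9, and in PyMT Pcbp1+/+ tumors 1 to 5 it was 268, 271, 225, 219.5 and 259. The groups were far apart, with every tumor on the side its label gives. The log2 fold change, PyMT Pcbp1-/- over PyMT Pcbp1+/+, was -3.43 ± 0.19 (SE, n = 6 and 5, edgeR adjusted p = 4.72e-06). The remaining signal was not assigned to a cell type.

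Of the 10 class I processing genes, 3 passed an adjusted p of 0.05 with lower expression in the PyMT Pcbp1-/- group (Tap1, Tap2 and Psme1), and 0 with higher. Across all 19232 genes tested with edgeR's quasi-likelihood test, 319 were called lower, which is 1.66%, and 117 were called higher, which is 0.608%. The median log2 fold change of the 10 genes was -0.49, beside -0.000123 for all genes tested, and 9 of the 10 had a negative value. At an unadjusted p under 0.05, 6 of the 10 were lower and 0 higher, beside 2025 lower and 1576 higher of all genes. All 10 passed the filter on low counts. In bulk tumor RNA, fewer cells of a type and less RNA per cell cannot be told apart.

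The 3 calls lay near the threshold. The number of the 10 genes called was 0 without PyMT Pcbp1-/- tumor 1, 3, 4 or 6 and without PyMT Pcbp1+/+ tumor 1, 3 or 4. It was 1 without PyMT Pcbp1-/- tumor 5 (Tap2), 2 without PyMT Pcbp1-/- tumor 2 (Psme1 and Tap2), 2 without PyMT Pcbp1+/+ tumor 2 (Tap1 and Tap2), and 3 without PyMT Pcbp1+/+ tumor 5. The left-out fits that called 0 of the 10 called 0.755% to 1.13% of all genes lower. Limma on log2(CPM + 1) called 1, Tap2, beside 1.19% of all genes. Limma-voom called 4, Tap1, Tap2, Psme1 and Tapbp, beside 6.19% of all genes.

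**Figure D1:**
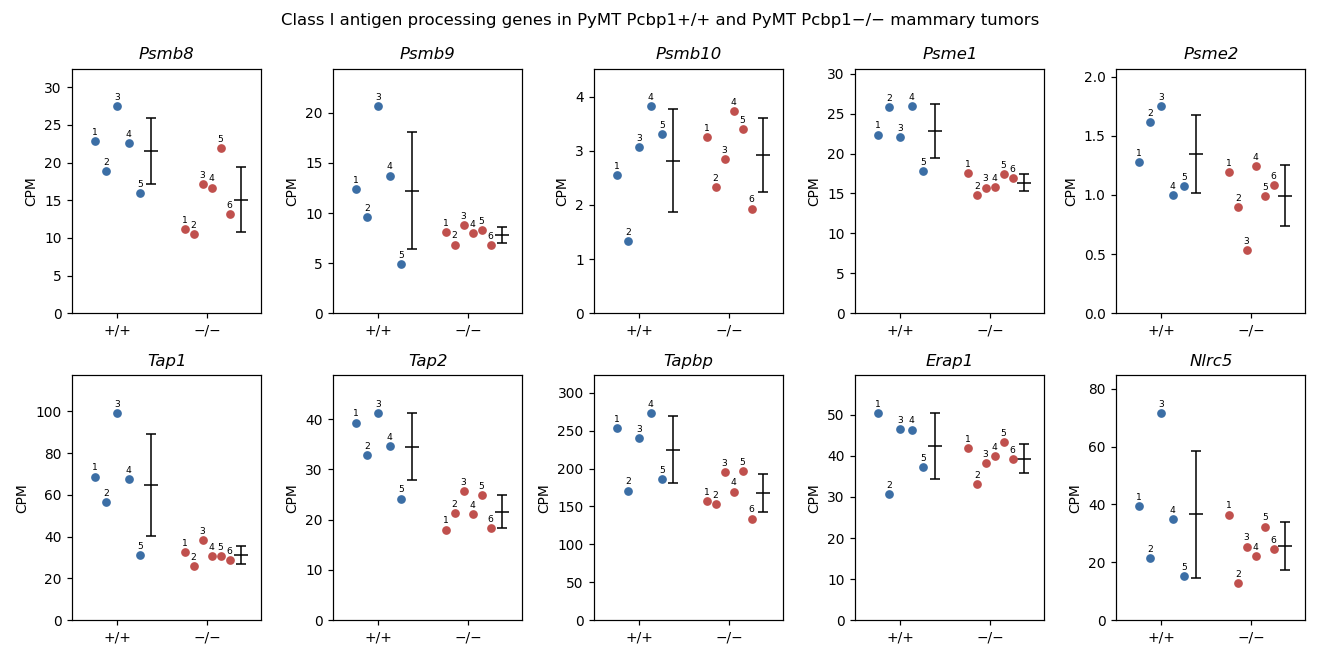
CPM of the 10 class I processing genes in each tumor (blue, PyMT Pcbp1+/+, n = 5; red, PyMT Pcbp1-/-, n = 6; numbers are the tumors' replicate numbers; bars, mean and SD). Tumor 5 of PyMT Pcbp1+/+ lies among the PyMT Pcbp1-/- tumors for Tap1 (31.4 CPM), while tumor 3 is the highest there (99.3 CPM).

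Psmb8, Psmb9 and Psmb10 are the inducible peptidases that stand in for the constitutive subunits Psmb5, Psmb6 and Psmb7 in the proteasome core. Psmb8, the chymotrypsin-like subunit also called LMP7, measured 10.498 to 21.9 CPM (median 14.9) across PyMT Pcbp1-/- tumors, and 22.8, 18.9, 27.5, 22.6 and 15.9 CPM in PyMT Pcbp1+/+ tumors 1 to 5. The groups overlapped, with 3 of 5 PyMT Pcbp1+/+ tumors above every PyMT Pcbp1-/- tumor and 3 of 6 PyMT Pcbp1-/- tumors below every PyMT Pcbp1+/+ tumor. It gave a log2 fold change of -0.51 ± 0.21 (SE, n = 6 and 5), which did not pass the test (edgeR adjusted p = 0.21).

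Psmb9, also called LMP2, measured 6.85 to 8.82 CPM (median 8.04) across PyMT Pcbp1-/- tumors, and 12.4, 9.56, 20.7, 13.7 and 4.89 CPM in the PyMT Pcbp1+/+ tumors. The PyMT Pcbp1-/- values were close together and the PyMT Pcbp1+/+ values wide apart: 4 of these 5 lay above all PyMT Pcbp1-/- tumors and tumor 5 lay below all of them. Its log2 fold change was -0.66 ± 0.28 (SE, n = 6 and 5; edgeR adjusted p = 0.226), and without PyMT Pcbp1+/+ tumor 3 it was -0.33 (edgeR adjusted p = 0.482). Psmb10, also called MECL-1, was low in both groups, at 1.93 to 3.73 CPM in PyMT Pcbp1-/- tumors and 1.33 to 3.83 CPM in PyMT Pcbp1+/+ tumors, from 14 to 51 counts. Its log2 fold change was 0.04 ± 0.27 (SE, n = 6 and 5; edgeR adjusted p = 0.948), a sign that turned with limma-voom, without PyMT Pcbp1-/- tumor 4 or 5 and without PyMT Pcbp1+/+ tumor 1 or 2. An antisense gene covers the whole of Psmb10, and the sources do not say whether counting used strand.

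A ratio within a tumor compares each inducible subunit with the constitutive one it replaces and does not depend on library scaling. The log2 ratio of Psmb8 to Psmb5 counts ran from -1.50 to -0.49 (median -0.99) across PyMT Pcbp1-/- tumors and was -0.15, -0.66, 0.38, 0.05 and -0.58 in PyMT Pcbp1+/+ tumors 1 to 5. PyMT Pcbp1-/- tumors sat lower, with 5 of 6 below every PyMT Pcbp1+/+ tumor and tumor 5 of PyMT Pcbp1-/- overlapping. The difference in means was -0.83, between -1.03 ± 0.39 (SD, n = 6) and -0.19 ± 0.43 (SD, n = 5), with p = 0.0108 by a two-sided exact permutation test over 462 arrangements and 0.0325 after Benjamini-Hochberg adjustment over 3 ratios. The smallest p this test can give is 0.00216. The difference holds changes of both genes, so it is not a measure of Psmb8 alone. Psmb8 had a log2 fold change of -0.51 and Psmb5 of 0.29, and neither passed alone (edgeR adjusted p = 0.21 and 0.12).

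The call on Psmb8 to Psmb5 ended, with adjusted exact p of 0.0714 to 0.0857, without PyMT Pcbp1-/- tumor 1, 2, 3, 4 or 6 or without PyMT Pcbp1+/+ tumor 1, 3 or 4. The difference closest to 0 was -0.69, without PyMT Pcbp1+/+ tumor 3. Of 50-base words in the Psmb5 transcript, 48.7% also occur in transcripts of other genes, among them the Gm3375 gene, so its count is uncertain.

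For Psmb9 to Psmb6 the means were -1.31 ± 0.28 (SD, n = 6) and -0.59 ± 1.03 (SD, n = 5), a difference of -0.72 that did not pass (adjusted exact permutation p = 0.195, two-sided). Without PyMT Pcbp1+/+ tumor 5 the difference was -1.05 and passed (adjusted exact permutation p = 0.0286), and without tumor 3 it was -0.37 (adjusted exact permutation p = 0.448). For Psmb10 to Psmb7 the means were -2.01 ± 0.33 (SD, n = 6) and -1.56 ± 0.92 (SD, n = 5), a difference of -0.45 (adjusted exact permutation p = 0.297). Without PyMT Pcbp1+/+ tumor 2, the lowest at -3.03, it was -0.81 (adjusted exact permutation p = 0.0214), and without tumor 4 it was -0.21 (adjusted exact permutation p = 0.6). In both ratios the PyMT Pcbp1+/+ tumors spread more widely than the PyMT Pcbp1-/- tumors, and the groups overlapped.

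**Figure D2:**
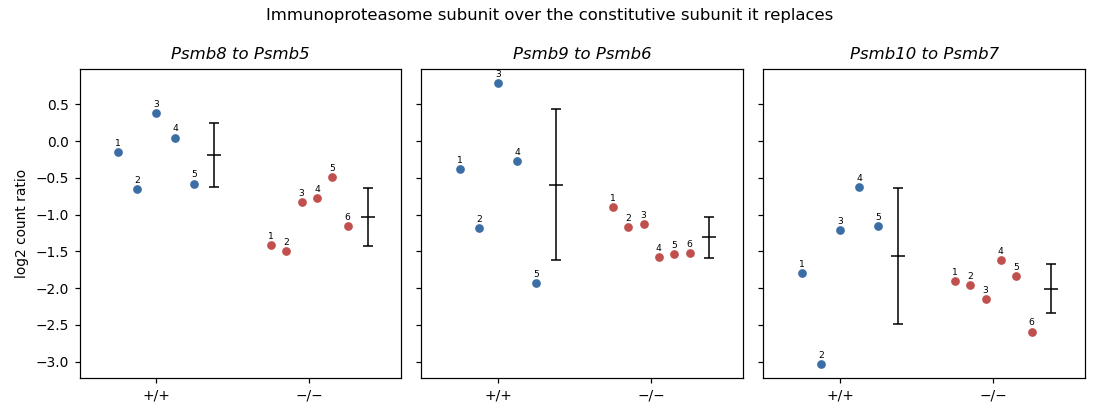
Log2 ratio of each immunoproteasome subunit to the constitutive subunit it replaces, from counts plus 0.5, in each tumor (blue, PyMT Pcbp1+/+, n = 5; red, PyMT Pcbp1-/-, n = 6; bars, mean and SD). For Psmb8 to Psmb5, 5 of 6 PyMT Pcbp1-/- tumors lie below every PyMT Pcbp1+/+ tumor.

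Psme1 and Psme2 form the ring-shaped PA28 activator, which caps the proteasome and opens its gate to peptides. Psme1 measured 14.8 to 17.5 CPM (median 16.4) across PyMT Pcbp1-/- tumors, and 22.4, 25.8, 22.1, 26.0 and 17.8 CPM in PyMT Pcbp1+/+ tumors 1 to 5. The groups did not overlap, although tumor 5 of PyMT Pcbp1+/+ came within 1 CPM of the highest PyMT Pcbp1-/- tumor. Psme1 was 1 of 10 members with this separation, beside 2.02% of all genes separated in that direction and 1.27% in the other, where 0 members fell. Its log2 fold change was -0.48 ± 0.10 (SE, n = 6 and 5, edgeR adjusted p = 0.0312), and all 6 PyMT Pcbp1-/- tumors were below all 5 PyMT Pcbp1+/+ tumors. The adjusted p from edgeR was over 0.05 in 9 of the 11 fits that left out 1 tumor, with a highest value of 0.0917. The fits without PyMT Pcbp1-/- tumor 2 and without PyMT Pcbp1+/+ tumor 5 kept the call.

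Psme2 was measured at the edge of detection, with 6 to 17 counts in PyMT Pcbp1-/- tumors and 11 to 20 in PyMT Pcbp1+/+ tumors. Its CPM ran from 0.534 to 1.24 (median 1.04) across PyMT Pcbp1-/- tumors and was 1.28, 1.61, 1.75, 1.00 and 1.07 in PyMT Pcbp1+/+ tumors 1 to 5. The groups overlapped and the log2 fold change of -0.44 ± 0.26 (SE, n = 6 and 5) did not pass (edgeR adjusted p = 0.4), with -0.28 when PyMT Pcbp1+/+ tumor 3 was left out. Psme2b, a related gene on chromosome 11 that was chosen after its values were seen, had 276 to 515 counts, and 59.2% of the 50-base words of the Psme2 transcript also occur in Psme2b. Psme2b itself had a log2 fold change of 0.05 ± 0.12 (SE, n = 6 and 5; edgeR adjusted p = 0.842). With both summed, an alternative chosen after seeing the data, the value was 0.04 (edgeR adjusted p = 0.897). Most counts in that sum are from Psme2b, so it cannot decide the direction of Psme2. Counted alone, Psme2 stayed negative with 1 tumor left out, from -0.54 to -0.28, and was called in 0 of these 11 fits. With so few counts and so many shared words, its direction remains uncertain.

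The rest of the proteasome was described beside these subunits. Of 32 constitutive 20S and 19S subunits, 0 were called lower and 1 higher, with a median log2 fold change of 0.12. The called gene was Psma5, an alpha-ring subunit of the core, at 4.09 to 6.22 CPM (median 4.99) across PyMT Pcbp1-/- tumors and 3.47, 3.03, 3.07, 3.01 and 3.04 CPM in PyMT Pcbp1+/+ tumors. The groups did not overlap. Its log2 fold change was 0.66 ± 0.14 (SE, n = 6 and 5, edgeR adjusted p = 0.0352), and the call was kept without PyMT Pcbp1-/- tumor 2, 3 or 6 and ended in the other 8 fits that left out 1 tumor, with a highest adjusted p of 0.0928. Psmb5, Psmb6 and Psmb7 had log2 fold changes of 0.29 ± 0.09, 0.21 ± 0.17 and 0.51 ± 0.16 (SE, n = 6 and 5; edgeR adjusted p = 0.12, 0.536 and 0.114). Without PyMT Pcbp1+/+ tumor 2, Psmb5 and Psmb7 passed (edgeR adjusted p = 0.0329 and 0.0381). They also passed with limma-voom and with DESeq2, which called 968 and 486 of all genes higher where edgeR called 117. Psmb6 ran from 0.13 to 0.32 with 1 tumor left out. In the 19S particle the lowest p was that of Psmc6, with a log2 fold change of 0.30 (edgeR adjusted p = 0.125). Among 12 other activators and assembly factors 0 passed in either direction with edgeR, and 2 had an unadjusted p under 0.05, both higher. Psmg3, an assembly chaperone, had the lowest p there, with a log2 fold change of 0.33 ± 0.14 (SE, n = 6 and 5; edgeR adjusted p = 0.228), and limma-voom called it (adjusted p = 0.0494).

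Tap1 and Tap2 pair into the pump that brings peptides from the cytosol into the endoplasmic reticulum, and both were lower in PyMT Pcbp1-/- tumors. Tap1 measured 25.9 to 38.3 CPM (median 30.6) across PyMT Pcbp1-/- tumors, and 68.8, 56.7, 99.3, 67.7 and 31.4 CPM in PyMT Pcbp1+/+ tumors 1 to 5. Tumors 1 to 4 of PyMT Pcbp1+/+ were above every PyMT Pcbp1-/- tumor, and tumor 5 lay inside their range, so that the groups overlapped through that tumor. The log2 fold change was -1.06 ± 0.23 (SE, n = 6 and 5, edgeR adjusted p = 0.0325), the largest fall among the 10 genes, and PyMT Pcbp1-/- tumors had 47.9% of the PyMT Pcbp1+/+ level.

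Tap2 measured 18.03 to 25.7 CPM (median 21.2) across PyMT Pcbp1-/- tumors, and 39.3, 32.9, 41.2, 34.7 and 24.2 CPM in PyMT Pcbp1+/+ tumors 1 to 5. Again 4 of 5 PyMT Pcbp1+/+ tumors lay above all PyMT Pcbp1-/- tumors and tumor 5 within their range. Tap2 had a log2 fold change of -0.68 ± 0.15 (SE, n = 6 and 5, edgeR adjusted p = 0.0325). Leaving out 1 tumor ended the call in 9 of 11 fits for Tap1 (highest adjusted p = 0.0804 by edgeR) and in 7 of 11 for Tap2 (highest 0.0776). Tap1 kept its call without PyMT Pcbp1+/+ tumor 2 or 5, and Tap2 without these and without PyMT Pcbp1-/- tumor 2 or 5. Without PyMT Pcbp1+/+ tumor 3, Tap1 had a log2 fold change of -0.80, and without tumor 5, -1.23.

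Tapbp encodes tapasin, which holds class I molecules next to TAP while they are loaded. It measured 134 to 197 CPM (median 163) across PyMT Pcbp1-/- tumors, and 253, 171, 241, 274 and 187 CPM in PyMT Pcbp1+/+ tumors 1 to 5. The groups overlapped, with tumors 2 and 5 of PyMT Pcbp1+/+ inside the PyMT Pcbp1-/- range, and the log2 fold change of -0.42 ± 0.14 (SE, n = 6 and 5) did not pass (edgeR adjusted p = 0.13). Limma-voom with sample quality weights alone called it, with an adjusted p of 0.0244 in a range of 0.0244 to 0.264 over the alternatives. The annotation of Zbtb22 overlaps Tapbp on the same strand for 3421 bases, so their reads may have been shared out in counting.

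Erap1, the peptidase that trims peptide ends in the endoplasmic reticulum, measured 33.2 to 43.5 CPM in PyMT Pcbp1-/- tumors and 30.8 to 50.5 CPM in PyMT Pcbp1+/+ tumors. The PyMT Pcbp1+/+ tumors covered the whole PyMT Pcbp1-/- range, and the log2 fold change was -0.10 ± 0.13 (SE, n = 6 and 5; edgeR adjusted p = 0.696), or -0.20 to -0.03 with 1 tumor left out. Of 5 other peptide loading genes, 0 passed in either direction with edgeR, 0 had an unadjusted p under 0.05, and the median log2 fold change was -0.06. The lowest p among them belonged to Calr, the chaperone calreticulin, with a log2 fold change of -0.20 ± 0.13 (SE, n = 6 and 5; edgeR adjusted p = 0.435). Of 6 cytosolic peptidases, 0 passed and 1 had an unadjusted p under 0.05, Blmh, with a log2 fold change of 0.34 ± 0.15 (SE, n = 6 and 5; edgeR adjusted p = 0.252).

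The peptides made by this machinery are bound by the class I heavy chains and their light chain, beta-2 microglobulin. Of 11 such genes listed, 1 was called lower, 10 had an unadjusted p under 0.05, all lower, and the median log2 fold change was -0.88. The called gene was H2-Q7, a nonclassical heavy chain, at 11.8 to 29.2 CPM (median 21.7) across PyMT Pcbp1-/- tumors and 76.7, 47.2, 211, 84.4 and 22.1 CPM in PyMT Pcbp1+/+ tumors 1 to 5. Tumor 5 of PyMT Pcbp1+/+ again lay among the PyMT Pcbp1-/- tumors and tumor 3 far above the rest. For H2-Q7 the log2 fold change was -2.12 ± 0.47 (SE, n = 6 and 5, edgeR adjusted p = 0.0396), and the call was kept without PyMT Pcbp1+/+ tumor 2 or 5 and ended without each of the other 9 tumors (highest adjusted p = 0.0905). Without PyMT Pcbp1+/+ tumor 3 the value was -1.42. H2-Q5, a heavy chain gene outside that list whose value was noticed afterwards, was also called lower (log2 fold change -2.38, edgeR adjusted p = 0.0212), and its dependence on single tumors was not tested. Heavy chain genes are near-copies of each other, so the split of reads between them is uncertain.

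The classical heavy chains and the light chain were named after their values were seen. H2-K1, H2-D1 and B2m had log2 fold changes of -0.88 ± 0.26, -0.66 ± 0.23 and -1.05 ± 0.32 (SE, n = 6 and 5), none of which passed (edgeR adjusted p = 0.0969, 0.149 and 0.108). H2-K1 passed without PyMT Pcbp1+/+ tumor 2 (edgeR adjusted p = 0.0457) and B2m without tumor 5 (0.0403). Without PyMT Pcbp1+/+ tumor 3 the values of H2-K1, H2-D1 and B2m were -0.58, -0.41 and -0.73 (edgeR adjusted p = 0.195, 0.31 and 0.234). DESeq2 and limma-voom, which called 730 and 1190 of all genes lower where edgeR called 319, called H2-K1 and B2m, and limma-voom called H2-D1. Which fit is closer to the truth for these genes was not tested.

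**Figure D3:**
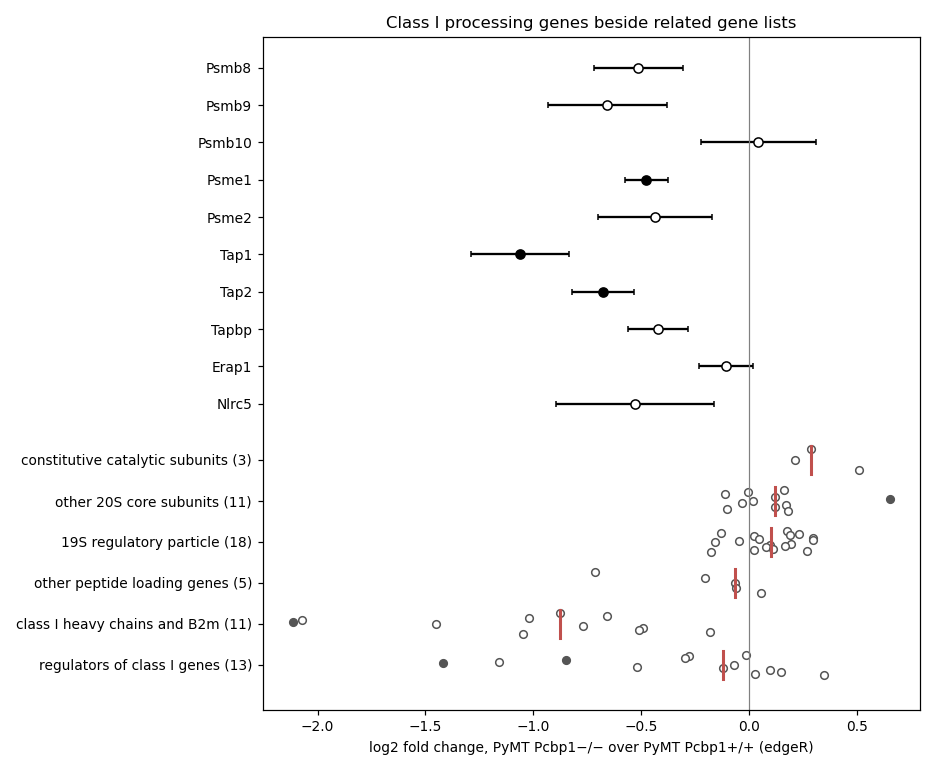
Log2 fold changes from edgeR, PyMT Pcbp1-/- (n = 6) over PyMT Pcbp1+/+ (n = 5), for the 10 class I processing genes (bars, SE) and for the genes of related lists (points; red lines, list medians; filled symbols, adjusted p under 0.05). The median of the class I heavy chains and B2m, -0.88, lies to the left of the medians of the constitutive proteasome lists.

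Nlrc5 is the transactivator that, with the RFX and NF-Y factors, switches on class I genes together with Psmb9, Tap1 and B2m. It measured 12.7 to 36.5 CPM (median 25.01) across PyMT Pcbp1-/- tumors, and 39.4, 21.5, 71.7, 35.1 and 15.3 CPM in PyMT Pcbp1+/+ tumors 1 to 5. Most values of both groups mixed, with tumor 3 of PyMT Pcbp1+/+ standing above all others. The log2 fold change was -0.53 ± 0.37 (SE, n = 6 and 5; edgeR adjusted p = 0.465), and without that tumor it was -0.07. A noncoding gene on the opposite strand overlaps the start of Nlrc5 for 748 bases, and its expression was the closest match to that of Nlrc5 (Pearson r = 0.958, 11 tumors).

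Among 13 regulators of class I genes, 2 were called lower and 0 higher, with a median log2 fold change of -0.12. At an unadjusted p under 0.05, 5 were lower and 1 higher. The higher one, the NF-Y subunit Nfyc, named after its values were seen, had groups that did not overlap and a log2 fold change of 0.35 ± 0.09 (SE, n = 6 and 5) that did not pass (edgeR adjusted p = 0.0755). Stat2 and Irf9 encode factors that carry the signal of type I interferon to the nucleus. Stat2 measured 16.3 to 27.0 CPM (median 19.5) across PyMT Pcbp1-/- tumors and 51.8, 57.0, 83.8, 55.3 and 25.4 CPM in PyMT Pcbp1+/+ tumors 1 to 5. Its log2 fold change was -1.42 ± 0.24 (SE, n = 6 and 5, edgeR adjusted p = 0.0112), called in all 11 fits that left out 1 tumor. Irf9 measured 30.0 to 46.4 CPM (median 37.2) across PyMT Pcbp1-/- tumors and 74.7, 73.6, 78.3, 74.3 and 39.5 CPM in the PyMT Pcbp1+/+ tumors, and its log2 fold change was -0.85 ± 0.17 (SE, n = 6 and 5, edgeR adjusted p = 0.0254). Irf9 kept its call without PyMT Pcbp1-/- tumor 1, 2 or 6 and without PyMT Pcbp1+/+ tumor 2 or 5, and lost it without each of the other 6 (highest edgeR adjusted p = 0.0689). For both genes tumor 5 of PyMT Pcbp1+/+ overlapped the PyMT Pcbp1-/- tumors. Of 4 interferon receptor genes, 0 passed with edgeR and 0 had an unadjusted p under 0.05. The lowest p was that of Ifngr2 (log2 fold change 0.27 ± 0.15, SE, n = 6 and 5; edgeR adjusted p = 0.374), which ran from 0.17 to 0.39 with 1 tumor left out.

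The same tumors stood at the ends of the PyMT Pcbp1+/+ group for many of the 10 genes. Tumor 5 was the lowest of its group for 6 of them (Psmb8, Psmb9, Psme1, Tap1, Tap2 and Nlrc5), and tumor 3 the highest for 6 (Psmb8, Psmb9, Psme2, Tap1, Tap2 and Nlrc5). The summed CPM of 5 leukocyte markers (Ptprc, Cd52, Cd53, Coro1a and Laptm5), led by Ptprc, was 96.0, 64.8, 123, 95.6 and 50.9 in PyMT Pcbp1+/+ tumors 1 to 5 and 55.4 to 118 (median 83.5) across PyMT Pcbp1-/- tumors. Tumor 5 was thus also the lowest and tumor 3 the highest of its group for these markers, and their part in the result was not tested.

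Leukocyte markers themselves did not separate the genotypes, with group means of 83.8 ± 22.3 (SD, n = 6) and 86.0 ± 28.5 (SD, n = 5), and 0 of 5 were called by edgeR. The summed CPM of 7 macrophage markers, led by C1qb, was 242, 164, 280.0, 226 and 126 in PyMT Pcbp1+/+ tumors 1 to 5 and 170.0 to 358 in PyMT Pcbp1-/- tumors. The 6 T cell markers, led by Cd8a, summed to 7.58, 2.94, 5.52, 8.29 and 2.59 CPM in PyMT Pcbp1+/+ tumors and to 2.92 to 7.29 CPM in PyMT Pcbp1-/- tumors, with Cd3d and Cd8b1 at 0 in some tumors. The 6 dendritic cell markers, led by Zbtb46, summed to 22.7, 16.5, 27.2, 26.5 and 17.3 CPM and to 12.6 to 25.8 CPM. None of these sums separated the groups, and 0 genes of the 13 marker lists passed with edgeR. The dendritic cell marker with the lowest p was Clec9a (log2 fold change -1.36 ± 0.41, SE, n = 6 and 5; edgeR adjusted p = 0.105), which limma-voom called and which was -0.82 without PyMT Pcbp1+/+ tumor 3. The 5 luminal epithelial markers, led by Cdh1, summed to 783 to 1412 CPM in PyMT Pcbp1-/- tumors, and to 1439, 1022, 1067, 1351 and 1185 CPM in PyMT Pcbp1+/+ tumors 1 to 5.

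The basal epithelial marker Krt14 measured 277 CPM in PyMT Pcbp1+/+ tumor 2 and 4.64 to 47.6 CPM in the other PyMT Pcbp1+/+ tumors (log2 fold change -2.42 ± 0.86, SE, n = 6 and 5; edgeR adjusted p = 0.16). Without that tumor the Krt14 value was -0.60. With all 11 tumors, the other 4 basal markers listed had positive values, 0 of them called. Lowest p in the other lists belonged to Cd52 (-0.19 ± 0.24), Cd8a (-0.21 ± 0.41), Prf1 (0.36 ± 0.40), Mrc1 (0.72 ± 0.37), Csf3r (-0.34 ± 0.40), Kdr (-0.35 ± 0.21), Col1a2 (0.35 ± 0.21), Fabp4 (-0.82 ± 0.80), Krt19 (-0.47 ± 0.47) and Acta1 (0.55 ± 0.92), as log2 fold change ± SE from edgeR. With 1 tumor left out, Acta1 ran from 0.03 to 2.28, Prf1 from 0.13 to 0.62, Mrc1 from 0.53 to 1.09, Csf3r from -0.54 to -0.09 and Krt19 from -0.72 to -0.28. The sign turned for Fabp4 (-1.53 to 0.58), Cd8a (-0.39 to 0.09) and Cd52 (-0.29 to 0.01). The adipocyte markers summed to 57.3 CPM in PyMT Pcbp1+/+ tumor 3 and to 3.22 to 10.48 CPM in the other PyMT Pcbp1+/+ tumors. The B cell list had 1 of its 4 genes in the tables, Cd79b, at 0.089 to 0.773 CPM. Over 4 to 7 genes tested per list, median log2 fold changes were 0.01 for leukocytes, 0.23 for macrophages, -0.42 for dendritic cells, -0.24 for endothelial cells, 0.29 for fibroblasts, -0.80 for adipocytes, -0.08 for luminal cells and 0.18 for basal cells. Fewer genes passed the filter on low counts for T cells (3 of 6, median -0.12) and cytotoxic cells (2 of 6, median 0.37). For neutrophils and skeletal muscle 1 gene of 4 was tested, so Csf3r and Acta1 are the values of those lists.

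For each member, the genes whose log2 CPM ran most closely with it over the 11 tumors were taken by Pearson r, as a description. Tap1 ran closest to Cd274 (r = 0.983), H2-Q5 (0.980) and Irgm2 (0.978), and Tap2 to Cd274 (0.939), Trim56 (0.930) and Igtp (0.929). Psmb8 ran closest to Dtx3l (0.960), Parp9 (0.928) and Socs1 (0.908), and Psmb9 to RP24-225A16.3 (0.962), Fbxw17 (0.951) and H2-Q6 (0.939). The genes nearest Psme1 were RP24-92D20.6 (0.974), Dhx58 (0.966) and Mitd1 (0.965), and those nearest Psme2 were RP23-19I2.7 (0.927), Adamtsl5 (0.901) and Itgax (0.873). Tapbp ran closest to H2-K1 (0.903), Lyrm7 (0.901) and H2-T22 (0.8999), and Erap1 to Sh2d2a (0.955), Gbp9 (0.938) and Casp12 (0.929). For Psmb10 they were Smc5 (0.941), RP23-373G12.3 (0.930) and Polr3b (0.903), and for Nlrc5, after the overlapping gene, RP23-17C12.7 (0.905) and Olfr56 (0.902). Among themselves, Tap1 and Tap2 had r = 0.927 and Tap1 and Psmb9 r = 0.909, while Psmb10 and Tap1 had r = -0.01. These values mix the difference between genotypes with the spread inside each group.

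In GRCm38, 5 of the 10 genes lie on chromosome 17, within the major histocompatibility complex. Tapbp is at chr17:33915899-33929288, Psmb9 at chr17:34181988-34187764, Tap1 at chr17:34187553-34197225, Psmb8 at chr17:34197721-34201454 and Tap2 at chr17:34203527-34216321. Psmb9 is on the minus strand and Tap1 on the plus strand, head to head, and their annotated ends overlap for 212 bases, so their reads there cannot be told apart unless counting used strand. Nlrc5 and Psmb10 are on chromosome 8, Psme1 and Psme2 on chromosome 14 and Erap1 on chromosome 13.

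Promoter windows of 300 bases, from 250 before to 50 after a gene's RefSeq start, were in the RefSeq table (GRCm38.p6) for 8 of the 10 genes, all but Tap2 and Nlrc5. RefSeq starts can differ from the deposited gene positions. The windows of Psmb8, Psmb9, Psme1, Erap1 and Tapbp lie wholly inside the deposited genes, downstream of their deposited starts. For Psmb8 the window begins at 34197945 and the deposited gene at 34197721. Both strands were searched for 4 motifs: the core of the interferon-stimulated response element (GAAA, any 2 bases, GAAA, in 3.44% of all 32851 promoter windows), the GAS core (TTCNNNGAA, 8.30%), the CCAAT box (CCAAT, 37.4%) and the GC box (GGGCGG, 35.7%). Matches describe letters and show no binding. The first was found in Erap1 and Psme1, the GAS core in Psmb8, the CCAAT box in Tapbp and in the window shared by Psmb9 and Tap1, and the GC box in Erap1, Psme1, Psme2, Tapbp and that shared window. The Psmb9 and Tap1 windows overlap for 275 bases on opposite strands.

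The shared window is shown because Tap1 fell and Psmb9, whose r with Tap1 is given above, starts from the same stretch in RefSeq. The other lines show the only windows with an interferon-type or GAS core match. Sequences are from RefSeq, GRCm38.p6, plus strand, 5' to 3', with motif letters in capitals. In Tap1, chr17:34187306-34187605, capitals mark a CCAAT box and a GC box. In Psme1, chr14:55578444-55578543, and Erap1, chr13:74639803-74639902, they mark the response element core (read on the minus strand) and, in Erap1, a GC box. In Psmb8, chr17:34198055-34198154, they mark the GAS core.
Tap1: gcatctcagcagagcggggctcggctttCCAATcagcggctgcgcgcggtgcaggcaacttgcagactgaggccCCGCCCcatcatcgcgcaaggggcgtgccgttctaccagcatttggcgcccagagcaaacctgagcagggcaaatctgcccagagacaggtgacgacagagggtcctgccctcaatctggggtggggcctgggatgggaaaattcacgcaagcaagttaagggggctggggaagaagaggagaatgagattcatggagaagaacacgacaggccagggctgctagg
Psme1: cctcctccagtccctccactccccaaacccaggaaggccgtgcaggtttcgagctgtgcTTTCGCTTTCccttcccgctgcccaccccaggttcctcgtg
Erap1: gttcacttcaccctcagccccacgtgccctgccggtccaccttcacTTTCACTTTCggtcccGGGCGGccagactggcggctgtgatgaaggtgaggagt
Psmb8: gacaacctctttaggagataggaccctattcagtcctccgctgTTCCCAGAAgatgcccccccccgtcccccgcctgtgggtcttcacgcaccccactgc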

How the data were processed

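RNA from 11 mammary tumors was extracted with Trizol, and stranded poly(A) libraries were sequenced by the authors. Per the labels, reads were checked with FastQC, aligned to GRCm38 with Bowtie2 and handled in Partek; the annotation, the counting method and its use of strand are not given in the sources used here. The authors deposited estimated counts per gene (18.1% to 19.8% of values not whole) and CPM, each estimated count divided by its column sum. The labels give a single batch. Deposited stop positions were taken 1 base earlier.

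After rounding, the estimated counts went into edgeR 4.0.16 (R 4.3.3; TMM, filterByExpr, quasi-likelihood F test, genotype only, two-sided), with Benjamini-Hochberg adjustment over all 19232 genes tested. SE was derived from the fold change and F. Ratios used counts + 0.5. Alternatives were DESeq2 1.42.0, other scalings, filters and pseudocounts, limma 3.58.1, a replicate block and each tumor left out. At these depths 3 counts correspond to 0.213 to 0.285 CPM. Named genes were the members, Pcbp1, Psmb5, Psmb6, Psmb7 and, per list, genes under an adjusted p of 0.05 (at most 6) or else the one with the lowest p; for likeness, the 3 genes with the highest r of log2 CPM (prior count 2) were taken. Members and lists were chosen with earlier results of these data known. Words of 50 bases were compared over GENCODE vM39 transcripts (GRCm39), from which no coordinates were taken.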

Additional observations from a re-analysis of the deposited data

Results flagged for a closer look

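In 86 groups of values tested, 9 values from 6 tumors stood apart from the rest of their group, where chance flags about 1 in 20 groups. Among PyMT Pcbp1+/+ tumors, Irf9 was 39.5 CPM in tumor 5, with the next at 73.6. Kdr was 8.04 CPM in tumor 5, with the next at 13.1. Acta1 was 11.5 CPM in tumor 5, with the next at 2.01. Krt14 was 277 CPM in tumor 2, with the next at 47.6. Fabp4 was 19.5 CPM in tumor 3, with the next at 3.39. Psma5 was 3.47 CPM in tumor 1, with the next at 3.07. Among PyMT Pcbp1-/- tumors, Psmb7 was 9.15 CPM in tumor 2, with the next at 11.5. Fabp4 was 10.3 CPM in tumor 1, with the next at 4.25. B2m was 166 CPM in tumor 1, with the next at 113.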

How the results depend on the processing

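Log2 fold changes of single named genes kept their direction and side of the threshold in 709 recalculations, lost the call in 60, gained it in 19 and turned sign in 11. The 709 include genes that were not called and stayed uncalled. Each called gene had 20 recalculations, and Psme1, Tap1 and H2-Q7 lost the call in 12 each. Psma5 lost it in 9, Tap2 in 8, Irf9 in 6, Stat2 in 1 and Pcbp1 in 0. Genes called lower and higher, 319 and 117, became 730 and 486 with DESeq2 and 1190 and 968 with limma-voom with sample quality weights. Which fit is closer to the truth for these data was not tested, so the larger counts are not read as more power. Leaving out 1 tumor gave 144 to 389 lower and 41 to 187 higher. The 3 class I processing genes called became 1 with limma on log2(CPM + 1), 1 on log2(CPM + 0.1), 4 with limma-voom and 0 to 3 with 1 tumor left out.

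Under a replicate block over 10 tumors, 118 genes were lower, 42 higher and 0 class I processing genes called, and the log2 ratio of Psmb8 to Psmb5 was -0.81 (exact two-sided p = 0.125, adjusted 0.375, where 5 pairs can reach 0.0625). The block also ended the calls on Stat2, Psma5 and H2-Q7 (edgeR adjusted p = 0.0564, 0.12 and 0.0828). Deviations of same-numbered tumors correlated at 0.134, 0.0867, -0.079, -0.144 and 0.293, and 2 of 5 PyMT Pcbp1-/- tumors correlated best with their own number. The labels do not say whether equal numbers share a litter or day, and so few correlations cannot decide it.

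With 1 tumor left out, the ratio difference ran from -0.951 to -0.69 for Psmb8 to Psmb5, from -1.05 to -0.368 for Psmb9 to Psmb6 and from -0.81 to -0.21 for Psmb10 to Psmb7. The log2 fold change of Psmb10 turned to -0.011 with limma-voom and ran from -0.13 to 0.15 with 1 tumor left out. That of Psme2b was -0.00984 with limma-voom. Psme2 with Psme2b added, an alternative chosen after seeing the data, gave 0.0364. That sum, counted above among the sign turns, is mostly Psme2b and does not measure Psme2. Left-out ranges also crossed 0 for Cd52 (-0.29 to 0.0115), Cd8a (-0.39 to 0.0876) and Fabp4 (-1.53 to 0.58). Clec9a failed the filter in 2 alternatives. Among the 10 class I processing genes, Psme2 and Psmb10 have the fewest counts.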
